A study of Mus musculus with 6 samples.

Results

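Cytosolic ribosomal protein genes encode the proteins that, with ribosomal RNA, build the large and small subunits of the ribosome outside mitochondria. They were taken here as the genes named alone by a probe set and carrying a symbol of the form Rpl, Rps or Rplp with a number, or Rpsa, without Rps6k kinases and pseudogenes. The rule found 44 genes among the 12393 genes named by a probe set with 1 gene, after 1 pseudogene had been left out. They comprised 22 genes of the large subunit, 20 of the small subunit, and Rplp0 and Rplp2 of the stalk, and 95 probe sets named them. Where several probe sets named a gene, the brightest of them (by mean signal) stood for it. For 14 of the 44 genes the set used was marked as cross-hybridizing (a name ending in _x_at). Of the 44 genes, 42 had a mean signal above the filter of 8.33 units. Rpl39l and Rpl3l, paralogues known from testis and striated muscle, lay below it with means of 1.41 and 1.44 units.

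The samples were B16 melanoma cells, a cell line from the mouse, and biotin-labelled cRNA of each of the 6 groups had been hybridized to 1 Affymetrix array. Cells had been moved to medium without serum 2 h before exposure. Chronic hypoxia was 3 h of under 1% oxygen, cyclic hypoxia was 3 periods of 1 h with breaks of 30 min of reoxygenation between them, and the normoxia control was kept for 3 h without hypoxia. A second array of each regime was collected 1 h later, after reoxygenation of the hypoxic cells (chronic hypoxia + 1h reoxygenation, cyclic hypoxia + 1h reoxygenation and normoxia +1h). Whether the normoxia cultures were held as long as the cyclic ones, whose breaks lengthen the exposure, is not stated. No group had a replicate, so differences carry no error estimate, and each is a log2 difference between single arrays, in units of log2 signal, unless a fit is named. Where 4 values follow each other, they are chronic hypoxia minus normoxia, cyclic hypoxia minus normoxia, chronic hypoxia + 1h reoxygenation minus normoxia +1h, and cyclic hypoxia + 1h reoxygenation minus normoxia +1h.

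Ribosomal protein mRNAs are among the most abundant in a growing cell, and their products are needed in equal amounts, since each ribosome holds 1 copy of nearly every protein. Most of these mRNAs begin with a tract of pyrimidines (the 5' terminal oligopyrimidine, or TOP, motif), through which the kinase complex mTORC1 and the RNA-binding protein LARP1 control their translation. Low oxygen is known to lower mTORC1 activity, and much of that control acts on translation, which an array of total RNA does not measure.

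The windows printed here show start sites with and without such a tract, from genes whose values are given below. RefSeq promoter sequences on GRCm38.p6 were found for 39 of the 44 genes. A tract was scored where a C followed by at least 4 bases of C or T began within 5 bases of the RefSeq start, on the gene's strand. Each line runs from 10 bases before the start to 20 bases of transcript, and capitals mark the tract.
Rps6 (chr4:86857348-86857377, minus strand): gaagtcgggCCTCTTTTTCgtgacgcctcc
Rplp2 (chr7:141447641-141447670, plus strand): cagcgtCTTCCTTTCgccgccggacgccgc
Rpl35 (chr2:39005112-39005141, minus strand): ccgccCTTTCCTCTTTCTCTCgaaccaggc
Rpl7a (chr2:26910797-26910826, plus strand): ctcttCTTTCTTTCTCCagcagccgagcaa
Rpl38 (chr11:114668570-114668599, plus strand): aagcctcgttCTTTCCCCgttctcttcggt
Rps18 (chr17:33955646-33955675, minus strand): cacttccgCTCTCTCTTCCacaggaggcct
In the next windows no tract was scored.
Rpl41 (chr10:128549149-128549178, minus strand): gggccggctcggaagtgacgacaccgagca
Rpsa (chr9:120127756-120127785, plus strand): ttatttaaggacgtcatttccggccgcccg
Rps15 (chr10:80292421-80292450, plus strand): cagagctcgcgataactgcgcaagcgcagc
A tract was scored in 19 of the 39 members (48.7%), against 21.1% of 26986 other genes in the same table and 24.2% of the 6369 of those that passed the filter on these arrays. A RefSeq start that lies a few bases from the start in use moves the window, so a missing tract says nothing about the transcript. Among the members with a mean of at least 3000 units, the median chronic hypoxia minus normoxia difference was 0.27 in the 12 with a tract and 0.29 in the 14 without one. For cyclic hypoxia minus normoxia these medians were 0.04 and 0.09.

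Windows of 300 bases, from 250 before to 50 after the start, were searched on both strands for 5 short motifs. The ETS-type motif CCGGAAG was found in 20 of 39 members (51.3%), against 9.87% of the other genes and 22.3% of those passing the filter. The core of the hypoxia response element, ACGTG, was found in 25.6% of the members, against 21.8% of the other genes and 31.0% of those passing. The E-box CACGTG, which contains ACGTG, was found in 10.3% of the members against 8.09% and 12.5%, the YY1-type motif AAGATGGC in 7.69% against 3.18% and 5.92%, and TATAAA in 12.8% against 15.7% and 8.05%. A match is a string of letters and not evidence of binding.

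The libraries matched their labels in the genes given here. Hk2, hexokinase 2 and a standard hypoxia target, read 1279 units after chronic hypoxia and 534 after cyclic hypoxia, against 165 in normoxia, and 885 and 405 against 164 an hour later. Of 7 melanocyte markers, 6 were named on the array and all passed the filter, with summed signals of 17658 to 23299 units per array. Mitf, 1 of the 6, ranged from 635 to 2820 units between arrays. Of 8 markers of leukocytes, endothelium, keratinocytes and fibroblasts, 1 passed (Krt5, mean 10.0 units). The authors' scaling set the trimmed mean of each array near 100 units, but the arrays differed at the bright end, with maxima of 6761 units after chronic hypoxia, 6035 after cyclic hypoxia, 5802 in normoxia, 7778 after chronic hypoxia + 1h reoxygenation, 7617 after cyclic hypoxia + 1h reoxygenation and 6266 in normoxia +1h. The ratio of 3' to 5' control probe sets, a sign of RNA integrity, lay between 1.17 and 1.25 for Actb and between 0.80 and 0.90 for Gapdh.

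Most ribosomal protein probe sets lay at the top of the range of signals. Of the 44 genes, 31 had a mean of 3000 units or more, 34 had a mean of 1000 units or more, and the highest was Rpl41 at 6168 units. The other 8 that passed the filter had means from 24.1 to 474 units (Rpl12, Rpl39, Rps27, Rpl27a, Rpl14, Rps6, Rps25 and Rpl37). These levels belong to probe sets, which differ in how well they bind, and give no order of mRNA amounts between genes. A further 102 probe sets named a ribosomal protein gene together with other loci and were kept apart from the members.

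The bright members differed little between arrays, and they did so together. In chronic hypoxia the median difference from normoxia over the 42 members was 0.26 (a fold of 1.20), and 40 of 42 lay above 0, where 50.5% of all 7746 genes did. No member was 2-fold higher (2.53% of all genes) and none was 2-fold lower (2.36%). In cyclic hypoxia the median was 0.08, and 29 of 42 lay above 0 against 47.1% of all genes. One member, Rps27, was 2-fold higher there (2.12% of all genes), and 0 were 2-fold lower (5.44%). The median of all genes was 0.00 in chronic and -0.03 in cyclic hypoxia. An array compares shares of labelled RNA, so neither the number of cells nor the RNA per cell was read.

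After the last hour the hypoxic arrays again read higher. For chronic hypoxia + 1h reoxygenation minus normoxia +1h the median of the members was 0.29, with 41 of 42 above 0 (49.9% of all genes), 0 members 2-fold higher (2.98%) and 0 lower (1.12%). For cyclic hypoxia + 1h reoxygenation minus normoxia +1h the median was 0.23, with 40 of 42 above 0 (50.3%). Rpl39 was 2-fold higher in that pair (3.56%) and no member was 2-fold lower (10.6%). The size of these medians depended on the scaling: the 4 values were 0.026, 0.019, 0.026 and 0.026 with quantile normalization, 0.0070, 0.019, 0.076 and 0.053 with arrays centred on bright genes outside the family, and 0.26, 0.11, 0.28 and 0.42 with arrays centred on all probe sets tested. Chronic and cyclic hypoxia share the normoxia array of their collection, so the signs in one comparison are not independent of those in the other.

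**Figure D1:**
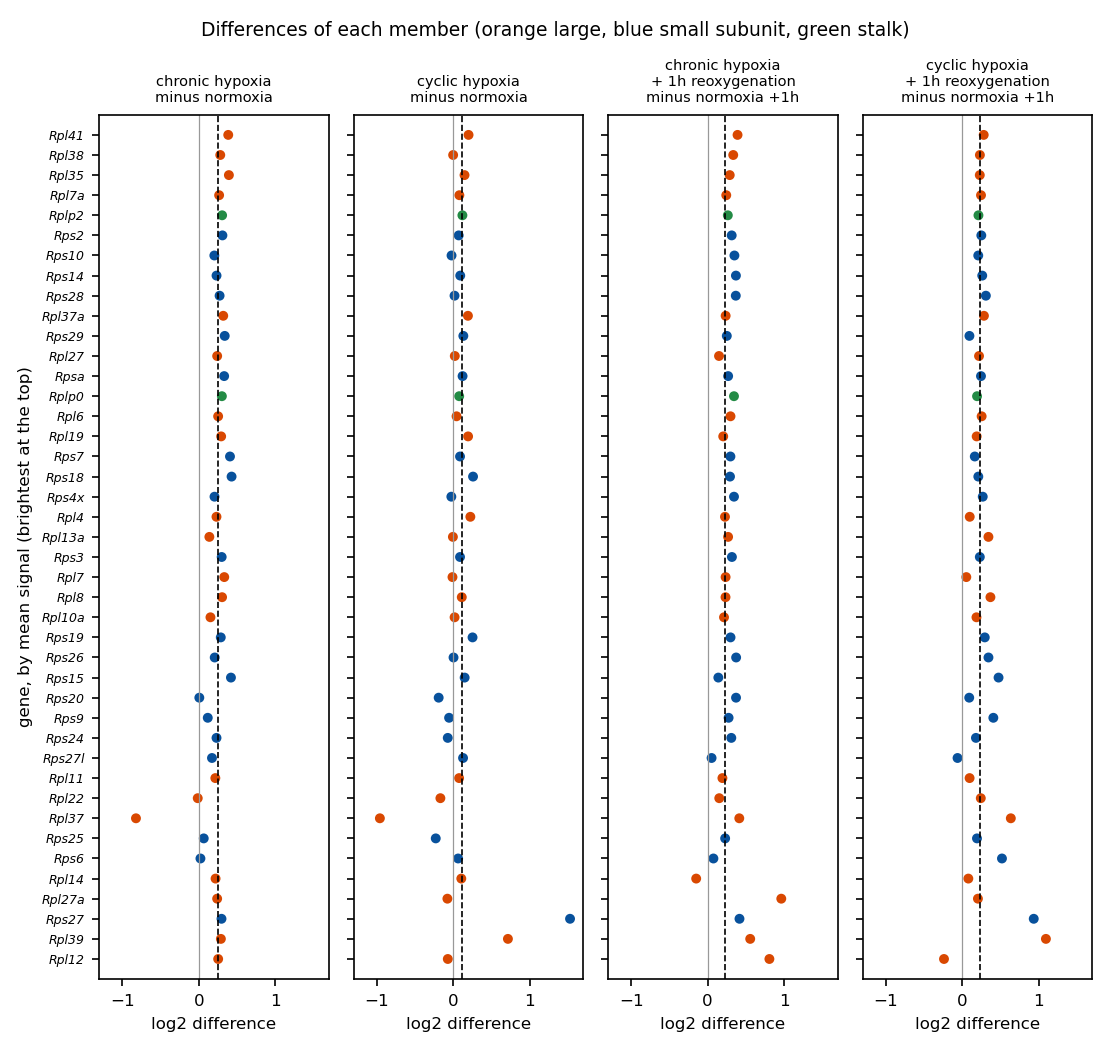
Log2 difference (x axis) of each of the 42 members that passed the filter (y axis, brightest probe set at the top) in the 4 comparisons of hypoxia with normoxia. Orange is the large subunit, blue the small subunit and green the stalk, and the dashed line is the median of 41 bright genes outside the family. The 34 members with means of 1000 units or more lie close to that line, and the scatter widens over the 8 dim members at the bottom.

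The 2 normoxia arrays, which differ by 1 h and by no hypoxia, showed how far the same probe sets moved without low oxygen. The median difference of the members for normoxia +1h minus normoxia was 0.12 as deposited, but -0.020 with quantile normalization and -0.026 with bright-gene centring, and as deposited 35 of 42 lay above 0 (51.5% of all genes), with none 2-fold higher (0.865%) or lower (1.87%). The second collection also read higher in the hypoxic regimes. For chronic hypoxia + 1h reoxygenation minus chronic hypoxia the median was 0.16, with 38 of 42 above 0 (48.1% of all genes), and for cyclic hypoxia + 1h reoxygenation minus cyclic hypoxia it was 0.28, also with 38 of 42 above 0 (51.3%). In the chronic pair 0 members were 2-fold higher (2.22%) or lower (1.45%), and in the cyclic pair 0 were 2-fold higher (2.9%) and 1, Rps27, was 2-fold lower (7.47%). For cyclic minus chronic hypoxia at the end of exposure the median was -0.20, with 3 of 42 above 0 (45.9%), and 1 member, Rps27, was 2-fold higher (1.23%) while 0 were lower (3.76%). After the last hour that difference was -0.05 as deposited, 0.011 with quantile normalization and 0.14 with median centring, with 13 of 42 above 0 as deposited (49.8%), and Rpl12 was 2-fold lower (12.6%) while 0 members were higher (2.5%).

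Genes outside the family that were as bright as its members moved by nearly the same amounts. There were 41 such genes with a mean of at least 3000 units, and their medians in the 4 comparisons of hypoxia with normoxia were 0.25, 0.12, 0.23 and 0.23, where the 31 members of that brightness had 0.29, 0.08, 0.29 and 0.23. In the same order 30, 29, 26 and 25 of the 31 members lay between the 10th and 90th percentiles of the bright genes. Above the bright genes' median lay 20, 10, 27 and 18 of the 31. The 41 genes were chosen by brightness and not for being unaffected by hypoxia, and included Actb, Eef1a1, Tpt1, Pgk1, Tpi1 and Mt1. For normoxia +1h minus normoxia the medians were 0.14 in the bright members and 0.15 in the other bright genes. Less bright genes outside the family had smaller medians for chronic hypoxia minus normoxia, at 0.05 over 338 genes of 1000 to 3000 units and 0.02 over 3154 genes of 100 to 1000 units. In the other 3 comparisons the medians were 0.04, 0.01 and 0.16 over the 338 genes and 0.04, -0.05 and -0.01 over the 3154 genes. For cyclic hypoxia + 1h reoxygenation minus normoxia +1h, 76.6% of the 338 genes were above 0.

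The bright spiked control cre moved as well. The 3' probe set of cre, a bacteriophage transcript added to the labelled sample as a hybridization control and not made by the cells, read 4769 units after chronic hypoxia and 4087 after cyclic hypoxia, against 3985 in normoxia. An hour later it read 6445 and 4924 units, against 4374 in normoxia +1h. Its differences were 0.26, 0.04, 0.56 and 0.17, so the array with the highest ribosomal protein signals was also the one in which this control was highest. The 3' set of bioD, another spiked control, was dimmer (859 to 1321 units) and had differences of 0.08, -0.31, 0.57 and 0.33, below the members in the first 2 comparisons and above them in the last 2. The bright members' medians of 0.29, 0.08, 0.29 and 0.23 lay within 0.1 of those of cre except in the third comparison, where cre was higher. The part of the scaling in the members' shift was examined only through the other scalings given above.

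**Figure D2:**
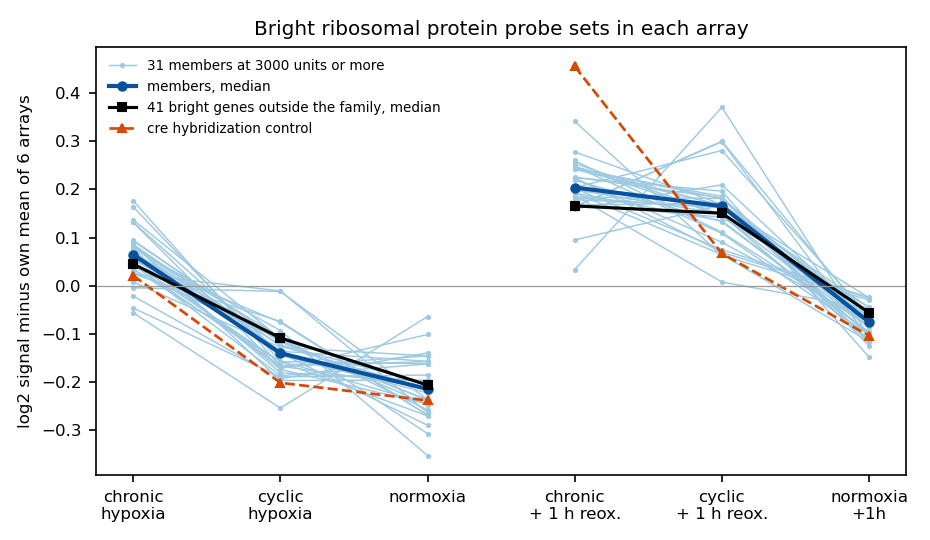
Log2 signal minus its own mean over the 6 arrays (y axis) in each array (x axis; the left 3 at the end of exposure, the right 3 an hour later). Thin lines are the 31 members with a mean of 3000 units or more, and thick lines are their median (blue), the median of 41 bright genes outside the family (black) and the cre hybridization control (dashed). The medians and the control rank the arrays of each collection alike, with chronic hypoxia highest and normoxia lowest.

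The order of the arrays was shared by most of the 31 bright members. All 31 read higher in chronic hypoxia than in normoxia and higher in chronic than in cyclic hypoxia, and 23 read higher in cyclic hypoxia than in normoxia. After the last hour all 31 read higher in either hypoxic regime than in normoxia +1h, and 24 were highest in chronic hypoxia + 1h reoxygenation while 7 were highest in cyclic hypoxia + 1h reoxygenation. The lowest array was normoxia for 23 of them and cyclic hypoxia for 8. The SD of the 31 differences was 0.09, 0.10, 0.06 and 0.09 in the 4 comparisons, under the median shift except for cyclic hypoxia minus normoxia, where the median was 0.08.

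**Figure D3:**
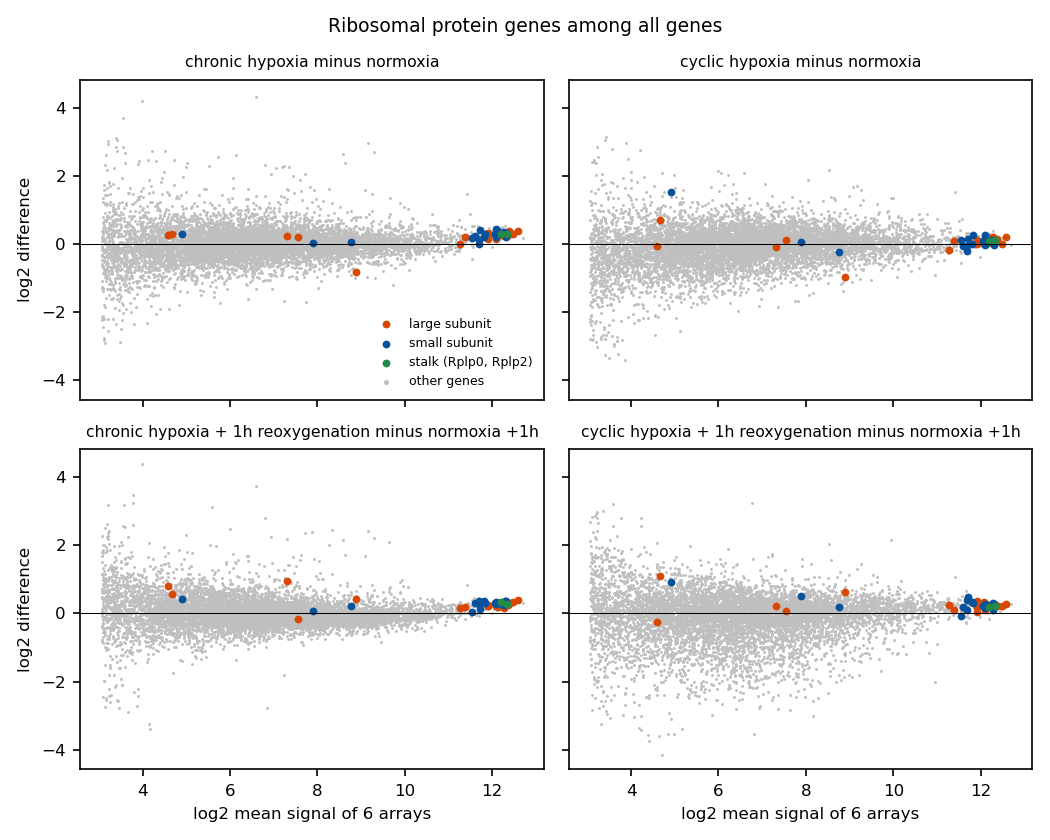
Log2 difference (y axis) against log2 mean signal of the 6 arrays (x axis) for all genes that passed the filter (grey) and the 42 members (coloured by subunit) in the 4 comparisons of hypoxia with normoxia. The bright members form a tight group at the right edge, where grey points also lie above 0, and the dim members spread more widely.

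Large and small subunit genes had similar medians. Among members with a mean of at least 1000 units, the median differences of 15 large-subunit genes were 0.27, 0.08, 0.23 and 0.23 in the order above, and those of 17 small-subunit genes were 0.27, 0.09, 0.31 and 0.25. The stalk is the flexible arm of the large subunit that recruits elongation factors. Rplp0, its base, read 4915 units after chronic and 4207 after cyclic hypoxia, against 3984 in normoxia, and 5567 and 5020 against 4385 an hour later. Rplp2, 1 of its acidic tip proteins, read 5382 and 4732 units against 4353, and then 5891 and 5690 against 4907. Both were lowest in normoxia and highest in chronic hypoxia + 1h reoxygenation, and neither differed by more than 0.34 in any of the 4 comparisons.

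Rpl41, a very short basic peptide at the interface of the subunits, was the brightest member and among the 6 with the highest mean difference. It read 6456 units after chronic and 5678 after cyclic hypoxia, against 4940 in normoxia, and 7410 and 6872 against 5650 an hour later. The differences were 0.39, 0.20, 0.39 and 0.28, each above the median of the bright genes outside the family. A second set of Rpl41 with a mean of 2832 units had 0.36, 0.07, 0.32 and 0.30, while its set not marked as cross-hybridizing, with a mean of 14.7 units, had -0.42, -0.81, 0.05 and -0.41. Rpl35, which lies at the exit of the tunnel for the growing chain, had differences of 0.39, 0.15, 0.29 and 0.23, and Rpl38, known in the mouse for an effect on translation of Hox mRNAs, had 0.28, 0.00, 0.33 and 0.23. Rpl7a, a core protein of the large subunit, read 5449 and 4789 units against 4528, and then 5858 and 5873 against 4949. In their brightest sets all 4 genes read lowest in normoxia or, for Rpl38, in cyclic hypoxia by a margin under the spread between members. Over the 5 sets of Rpl35 with means of at least 500 units, cyclic hypoxia minus normoxia ran from -0.13 to 0.40.

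A group of bright members is known for roles beyond the ribosome or in disease. Rpsa, also known as the precursor of the laminin receptor, read 5110 units after chronic and 4417 after cyclic hypoxia, against 4057 in normoxia, and 5431 and 5352 against 4511 an hour later. Rps3, at the mRNA entry channel and also linked to DNA repair, had differences of 0.30, 0.09, 0.32 and 0.23. Rps14 and Rps19, whose loss in humans is tied to 5q- syndrome and Diamond-Blackfan anaemia, had 0.23, 0.09, 0.37 and 0.26, and 0.29, 0.25, 0.30 and 0.30. Rps4x, the X-linked form of a small-subunit protein, had 0.21, -0.02, 0.34 and 0.27. Rpl13a, known in human myeloid cells for a role in silencing inflammatory mRNAs, had 0.14, 0.00, 0.27 and 0.34 in its brightest set. Its set with a mean of 3902 units had 0.55, 0.31, 0.27 and 0.14. The sets with means of 2369 and 1370 units had 0.09, -0.13, 0.29 and 0.46, and -0.13, -0.39, 0.43 and 0.54. Size and sign at the end of exposure thus depended on the probe set. Rpl11, which can bind the p53 inhibitor Mdm2 when ribosome assembly fails, had 0.22, 0.08, 0.19 and 0.10.

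At the high end among bright members stood Rps15 and Rps18, both in the head of the small subunit. Rps15 read 3643 units after chronic and 3017 after cyclic hypoxia, against 2719 in normoxia, and 3403 and 4298 against 3089 an hour later. It was one of the 7 bright members that were highest after cyclic hypoxia + 1h reoxygenation. The differences of this set were 0.42, 0.15, 0.14 and 0.48. A second set of Rps15, with a mean of 3314 units, had 0.29, 0.06, 0.19 and 0.21, so the size depended on the probe set. Rps18 read 4578 and 4069 units against 3398, and then 5151 and 4871 against 4206, with differences of 0.43, 0.26, 0.29 and 0.21. This set is marked as cross-hybridizing, as is one with a mean of 4191 units, which had 0.47, 0.22, 0.24 and 0.34. The bright set of Rps18 not so marked, with a mean of 3877 units, had 0.27, 0.09, 0.24 and 0.26.

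At the low end among members with means of at least 1000 units stood Rpl22, Rps20 and Rps27l. Rpl22, a protein that also binds RNA outside the ribosome, read 2411 units after chronic and 2166 after cyclic hypoxia, against 2432 in normoxia, and 2641 and 2816 against 2377 an hour later. Its differences at the end of exposure, -0.01 and -0.17, lay below 0. All 31 brighter members read higher in chronic hypoxia than in normoxia, but 8 of the 31 also lay below 0 for cyclic hypoxia minus normoxia. Rps20, in the head of the small subunit, read 3156 and 2751 units against 3139, and then 4157 and 3427 against 3214 and was highest after chronic hypoxia + 1h reoxygenation. Rps27l, a paralogue of Rps27 known as a p53 target, was the flattest in its brightest set. That set read 3137 and 3042 units against 2781 and then 3089 and 2860 against 2982. Its difference after cyclic hypoxia + 1h reoxygenation was -0.06, where the family's median was 0.23. Other sets of Rps27l, with means of 2804 and 2464 units, both had 0.07 in that comparison. For cyclic hypoxia minus normoxia they had -0.14 and -0.41, against 0.13 in the brightest.

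Among the probe sets that stood for the 42 members, the larger differences all came from dim ones. Large differences in less bright sets of Rps10 and Rpl7 are given below. Rps27, a zinc-binding protein of the small subunit, read 28.2 units after chronic and 66.3 after cyclic hypoxia, against 23.0 in normoxia, and 19.5 and 28.0 against 14.6 an hour later. The cyclic hypoxia array alone stood apart, with a difference of 1.53 (a fold of 2.89). Rpl39, which lines the exit tunnel, read 27.8 and 37.4 units against 22.8, and then 20.4 and 29.7 against 13.9, and its difference after cyclic hypoxia + 1h reoxygenation was 1.10. Rpl12, at the base of the stalk, read 27.3 and 21.8 units against 22.9, and then 35.3 and 17.1 against 20.2. In Rpl12 both chronic differences (0.25 and 0.81) lay above 0 and both cyclic differences (-0.07 and -0.24) below it, a pattern of opposite signs shown by 1 of 42 members and by 9.28% of all genes.

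Rpl37, a zinc-binding large-subunit protein read here by 1 set marked as cross-hybridizing, had the lowest mean difference of all members. It read 360 units after chronic and 327 after cyclic hypoxia, against 636 in normoxia, and 522 and 609 against 392 an hour later. The differences were -0.82 and -0.96 at the end of exposure and 0.41 and 0.64 after the last hour, and the normoxia arrays themselves differed by -0.70 (normoxia +1h minus normoxia). Rpl27a, a large-subunit protein, read 155 and 125 units against 131, and then 257 and 152 against 132, so the array after chronic hypoxia + 1h reoxygenation stood alone. Rps6, the small-subunit protein phosphorylated by the S6 kinases downstream of mTORC1, read 210 and 216 units against 207, and then 240 and 327 against 228, with its highest value after cyclic hypoxia + 1h reoxygenation. Rps25, which contacts viral internal ribosome entry sites, had differences of 0.07, -0.23, 0.23 and 0.19, and Rpl14, a surface protein of the large subunit, had 0.22, 0.11, -0.15 and 0.08. The 8 dim members thus followed no common order of the arrays.

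Probe sets of the same gene did not always agree. For 17 members with several probe sets of at least 500 units, the largest range between sets of one gene was 1.24 for chronic hypoxia minus normoxia and 1.56 for cyclic hypoxia minus normoxia, and the signs differed in 7 and 9 of the 17 genes. After the last hour the signs differed in 1 of the 17 genes in each comparison. The 7 probe sets with means of 500 to 2000 units, from 6 genes, moved further than their brighter partners: their median differences were -0.42 and -0.54 at the end of exposure and 0.31 and 0.54 after the last hour, where the brightest sets of the same genes had 0.22, -0.02, 0.27 and 0.22. The medians had opposite signs for chronic hypoxia minus normoxia.

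Rps10, a small-subunit protein near the mRNA entry, showed the widest gap. Its dimmest such set read 769 units after chronic and 499 after cyclic hypoxia, against 1231 in normoxia, and 954 and 2196 against 1029 an hour later. Its brightest set read 5249 and 4488 units against 4556, and then 5984 and 5434 against 4694. Rpl7, a large-subunit protein, was likewise highest in normoxia at the end of exposure in its dimmest such set but not in its brightest, with 730 and 678 units against 1371 and then 1622 and 1134 against 895 in the dimmest, and 4333 and 3415 against 3437 and then 4367 and 3854 against 3711 in the brightest. After the last hour the dimmest set of Rps10 was highest after cyclic hypoxia and that of Rpl7 after chronic hypoxia. For both genes the direction of chronic hypoxia minus normoxia depended on which probe set was read. The probes' target positions within each transcript were not analysed here.

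**Figure D4:**
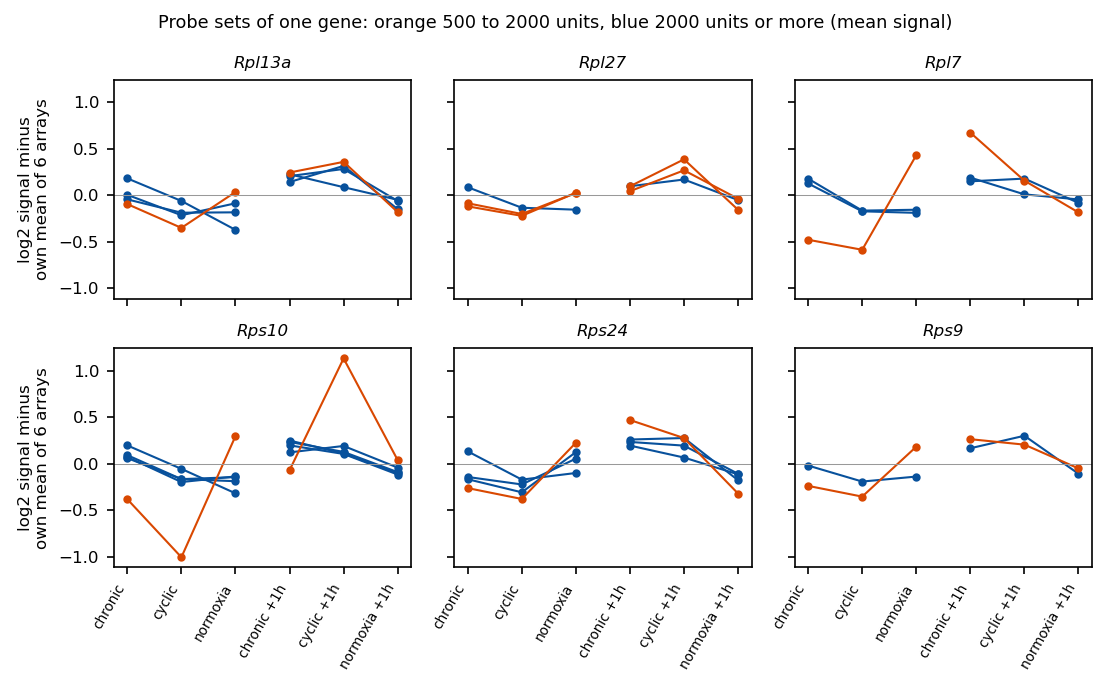
Log2 signal minus its own mean over the 6 arrays (y axis) in each array (x axis; the left 3 at the end of exposure, the right 3 an hour later) for the probe sets of 6 members. Orange lines are probe sets with means of 500 to 2000 units and blue lines brighter ones. At the end of exposure every orange line is highest in normoxia, while the brightest sets are not.

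The 102 probe sets that name a ribosomal protein gene together with other loci gave the same picture. There were 58 with a mean of at least 3000 units, and their median differences were 0.26, 0.04, 0.30 and 0.18. Because processed pseudogenes of this family are many and near-identical, signals of such sets cannot be given to one locus.

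A fit over all 6 arrays used the 2 collections of a regime in place of replicates, with regime and collection as terms (limma, Benjamini-Hochberg adjustment over 13556 probe sets). It called no member in any contrast. For chronic hypoxia minus normoxia it called 13 probe sets in all (0.0959%) and for mean hypoxia minus normoxia 2 (0.0148%), while for cyclic hypoxia minus normoxia and for cyclic minus chronic hypoxia it called 0% of them. At an unadjusted p under 0.05, 26 of 42 members (all higher) passed for chronic hypoxia (5.35% of all probe sets), 6 (all higher) for cyclic hypoxia (14.9%), 24 (all higher) for mean hypoxia (8.9%), and 3 (1 higher, 2 lower) for cyclic minus chronic hypoxia (14.5%). The count of 26 rested on single arrays: it was 2 without the chronic hypoxia array, 6 without normoxia +1h, 14 without normoxia, 15 without chronic hypoxia + 1h reoxygenation, and 29 without either cyclic array. For mean hypoxia the count of 24 became 5 without chronic hypoxia, 4 without normoxia, 3 without normoxia +1h, 14 without chronic hypoxia + 1h reoxygenation, 17 without cyclic hypoxia + 1h reoxygenation and 28 without cyclic hypoxia. For cyclic hypoxia the count of 6 became 16 without the cyclic hypoxia array, 5 without either chronic array, 2 without normoxia +1h, and 1 without normoxia or without cyclic hypoxia + 1h reoxygenation. For cyclic minus chronic hypoxia the count of 3 became 9 without cyclic hypoxia + 1h reoxygenation, 0 without chronic hypoxia + 1h reoxygenation and 1 without any other array. With the arrays centred on the bright genes outside the family, 1 member passed for chronic and 1 for mean hypoxia. Without the cyclic hypoxia array, with 1 cyclic array left, the fitted difference of Rps15 was 0.55 for cyclic hypoxia. For mean hypoxia those of Rps15 and Rpl41 were 0.41 and 0.33 in that setting. The lowest adjusted p of a member in limma's chronic contrast was 0.287, for Rpl41, whose fitted difference was 0.39 with an SE of 0.08 and which read higher in hypoxia in 2 of 2 collections. In limma's cyclic contrast it was 0.171, for Rps27, at a fitted difference of 1.23 with an SE of 0.32. Such p-values measure the spread between collections and not between cultures.

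Genes that make or serve ribosomes were read beside the family from lists of 8 groups. Of ribosomal protein genes that the symbol rule does not take, Fau, which encodes Rps30 fused to a ubiquitin-like protein, had differences of 0.36, 0.02, 0.07 and 0.15, and Rps3a1, a small-subunit protein, had 0.16, -0.03, 0.21 and -0.15. Both Rpl22l1, the paralogue of Rpl22, and Rpl7l1 lay below 0 after cyclic hypoxia + 1h reoxygenation, at -0.36 and -0.14. Elongation factors had medians of -0.06, -0.12, 0.05 and 0.15 over 12 genes, though Eef1a1, the bright factor that delivers aminoacyl-tRNA, had 0.36, 0.17, 0.29 and 0.23 and so moved like the bright members. The 32 initiation factors had medians of 0.17, 0.17, 0.01 and 0.07. After cyclic hypoxia + 1h reoxygenation 1 of the 32, Eif5, was 2-fold lower at -1.80, where 10.6% of all genes were.

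Genes that serve the making of ribosomal RNA gave mixed values. The 14 genes of RNA polymerase I transcription had medians of 0.42, 0.17, 0.35 and 0.11, with 13 of 14 above 0 for chronic hypoxia minus normoxia (50.5% of all genes). The largest differences were those of Taf1a, a subunit of the selectivity factor of that polymerase with a mean of 9.37 units, at 1.78, 0.07, 1.31 and -0.57. Polr1b, the second largest subunit of the polymerase, had 0.86, -0.46, -0.74 and -1.44. The 53 genes of ribosome biogenesis had medians of 0.22, -0.02, 0.15 and -0.12. Rrp9, which binds the U3 small nucleolar RNA, had the largest differences among them, at 0.69, 0.69, 1.05 and 1.51, and Nop14, a factor of small-subunit assembly, had 0.99, 1.06, 0.29 and -0.78. The fit called 0 genes, in either direction, in any of the 8 lists.

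Some regulators of TOP mRNA translation held larger differences. Over 18 genes of mTORC1 and TOP mRNA regulation the medians were 0.11, -0.08, 0.14 and 0.00. Ddit4 (REDD1), an inhibitor of mTORC1 known to be induced by hypoxia, read 250 units after chronic and 128 after cyclic hypoxia, against 106 in normoxia, and 656 and 143 against 126 an hour later. Eif4ebp1, the translation repressor that mTORC1 switches off, read 1217 and 1157 units against 724, and then 1183 and 1756 against 906. Sesn2, a stress-induced mTORC1 inhibitor, read 68.1 and 41.9 units against 44.6, and then 50.2 and 61.3 against 20.7. The 11 genes of ribosome surveillance and stress had medians of 0.24, 0.23, 0.03 and -0.10. Myc, a transcription factor known to drive ribosomal genes, read 109 and 92.0 units against 78.6, and then 197 and 35.0 against 91.0. Its lowest array was that after cyclic hypoxia + 1h reoxygenation. A relation of Myc to the ribosomal protein signals was not tested. Mitochondrial ribosomal proteins, which belong to another ribosome, had medians of 0.04, -0.08, -0.16 and 0.11 over 74 genes. In that order 41, 32, 19 and 51 of the 74 were above 0, against 50.5%, 47.1%, 49.9% and 50.3% of all genes. Of the 42 cytosolic members 40, 29, 41 and 40 were above 0. The 2 families were not matched for brightness.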

How the data were processed

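The deposited values were GCOS signals per probe set, linear intensity units scaled by the authors, per the submitters' processing notes; the GCOS version and algorithm are not given in the sources used here. Each column's mean, trimmed by 2% at each end, was near 100 units, and values were used as deposited. Values under the 20th percentile (2.10 units) were set to it before log2, probe sets whose mean fell below 8.33 units (the 40th percentile over all means) were left out, as were 64 control sets, and 13556 were tested. Genes were matched by Entrez identifier through the platform annotation, and the brightest of the probe sets naming 1 gene stood for it (7746 genes passed). Differences between single arrays were described without a test, with 2-fold as the mark. The fit used limma 3.58.1 in R 4.3.3 (regime plus collection, 2 residual degrees of freedom, intensity trend, adjusted p under 0.05) and was tested on simulated data. Arrays give no depth, and having 6 of them sets the precision. Motif counts used RefSeq promoters. The members, lists, rules for named genes (the members highest, lowest, brightest, dimmest or 2-fold apart, those with a named role, and the genes with the largest differences of each list) and tests were chosen with earlier results of these data known. Alternatives were quantile normalization, centring on all or on bright genes, another floor, other probe sets per gene, no filter, no trend and leaving out each array.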

Additional observations from a re-analysis of the deposited data

Results flagged for a closer look

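In 1 of the 42 members, Rpl12, both chronic differences lay above 0 and both cyclic differences below it, and 9.28% of all genes showed such opposite signs in either direction. Its differences were 0.25 for chronic hypoxia minus normoxia, -0.071 for cyclic hypoxia minus normoxia, 0.81 for chronic hypoxia + 1h reoxygenation minus normoxia +1h and -0.24 for cyclic hypoxia + 1h reoxygenation minus normoxia +1h. The additive limma fit gave an adjusted p of 0.398 for its cyclic minus chronic difference of -0.69. The median of the ribosome biogenesis list had the same signs, at 0.22, -0.024, 0.15 and -0.12 in that order, and its difference between regimes was not tested. Tia1, an RNA-binding protein linked to TOP mRNAs, had 0.027, -0.68, 0.095 and -1.54, and an adjusted p of 0.204 for cyclic minus chronic hypoxia in the limma fit. Mrpl1, a mitochondrial ribosomal protein, had 0.29, -0.34, 0.036 and -1.12, with an adjusted p of 0.275 in that limma contrast. Eif4a2, an RNA helicase of translation initiation, had 0.46, -0.37, 0.34 and -0.82, with an adjusted p of 0.204 in that limma contrast. None of the differences between regimes of these 4 genes passed the test, and in each gene the array after cyclic hypoxia + 1h reoxygenation, in which 10.6% of all genes were 2-fold lower, held the lowest value.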

How the results depend on the processing

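The size of the members' shift depended on the scaling. Quantile normalization, which gives every array the same brightest values, left medians of 0.026 for chronic hypoxia minus normoxia, 0.026 for chronic hypoxia + 1h reoxygenation minus normoxia +1h, -0.020 for normoxia +1h minus normoxia and 0.011 for cyclic minus chronic hypoxia after the last hour. Centring on the 41 bright genes, chosen after seeing the data, left 0.0070, 0.076 and -0.026 in the first 3 of these, and moved the median of all genes by -0.25 in the first. Centring on all probe sets moved the median of all genes after the last hour by 0.20 for cyclic minus chronic hypoxia, where the members' median became 0.14. Other medians moved by less than 1 SD of the members but far in proportion: for cyclic hypoxia + 1h reoxygenation minus normoxia +1h (0.23 as deposited) they were 0.026 with quantile normalization, 0.053 with bright-gene centring and 0.42 with median centring, and for cyclic hypoxia + 1h reoxygenation minus cyclic hypoxia (0.28) 0, 0.011 and 0.45. For cyclic minus chronic hypoxia at the end of exposure (-0.20) the first left 0 and the second -0.00055. Counts of members 2-fold apart became 1 for chronic and 2 for cyclic hypoxia minus normoxia, and 0 for cyclic hypoxia + 1h reoxygenation, with bright-gene centring. They became 2 for cyclic hypoxia + 1h reoxygenation with quantile normalization or median centring, and 1 after chronic and 2 after cyclic hypoxia + 1h reoxygenation with probe sets not marked as cross-hybridizing (37 members). Leaving out an array in turn called no member for chronic hypoxia or for cyclic minus chronic hypoxia. For cyclic and for mean hypoxia members were called only without the cyclic hypoxia array, where probe sets outside the family were called as well. That setting leaves 1 residual degree of freedom and a lone cyclic array assumed to vary like the others. Members at an unadjusted p under 0.05 in limma's chronic contrast numbered 1 with quantile normalization, 4 with median centring, 4 without the filter and 0 without the intensity trend, against 26. With probe sets not marked as cross-hybridizing, the mean of the 4 differences was -0.40 for Rpl41 (0.32 as reported) and 0.47 for Rps20 (0.07, and -0.10 with quantile normalization). No paired analysis was possible because each group has 1 array and the labels give no replicate numbers, and collection was a term in the fit instead. No detection calls were used, so the signal over background of the dim members is not known.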
